A study of Mus musculus with 55 samples.

Results

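The expression of 8 uptake carriers of the liver was followed across mouse lines: Slco1b2, Slco1a1, Slco1a4, Slco2b1 and Slco2a1 of the organic anion transporting polypeptide family, and Slc22a7, Slc22a5 and Slc22a18 of the organic ion carrier family. All 8 were found by gene symbol among the 37620 genes quantified by RNA-seq in the livers of 55 male mice from 29 lines of the Collaborative Cross (CC). The CC is a panel of recombinant inbred lines bred from 8 founder strains, so that line mates are largely alike in genotype. The lines were named IL-72 to IL-4457 in the labels, and all mice were kept on chow with no treatment named. A line was represented by 1 mouse in 8 lines, 2 mice in 16 lines and 3 mice in 5 lines. The mice were 8 to 11.9 weeks old and weighed 12.8 to 38 g, and line mates had the same age in 20 of the 21 lines with at least 2 mice, so that age and line cannot be told apart. The CC lines differed in their generations of inbreeding, and 1 to 3 mice stood for each line.

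Hepatocytes take up bile acids, steroid conjugates, thyroid hormones and many drugs from sinusoidal blood through carriers in their basolateral membrane, before enzymes modify these compounds and export pumps move them into bile. The Slco carriers exchange large organic anions, while the Slc22 carriers move smaller organic anions, organic cations and carnitine. Several of these genes are known in rodent liver for regulation by growth hormone, by the xenobiotic receptors CAR and PXR, and by the fatty acid receptor PPAR alpha.

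The depth was between 20542671 and 33953036 fragments per mouse. Levels are given as FPKM, fragments scaled by transcript length and by library total, which corrects for length and allows genes to be compared. Defining markers of hepatocytes were high in all mice, with 9 of 10 found and a summed level of 28746 to 73786 FPKM, whereas the 6 kidney markers summed to at most 0.09 FPKM, with 1 of them at 0 throughout. For 41 of the 47 mice with a line mate, the mouse with the most similar profile over 11284 genes was a line mate. The 5 mice of lines IL-1052 and IL-2750 were all most similar to a mouse of the other of these lines (Spearman rho over genes of 0.968 to 0.977), against their labels. Main counts and the values that changed most are therefore also given without both lines, and these mice are marked in the plots of levels and isoforms. The remaining exception was IL-2146 replicate 2, which was most similar to the mouse of line IL-1141.

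**Figure D1:**
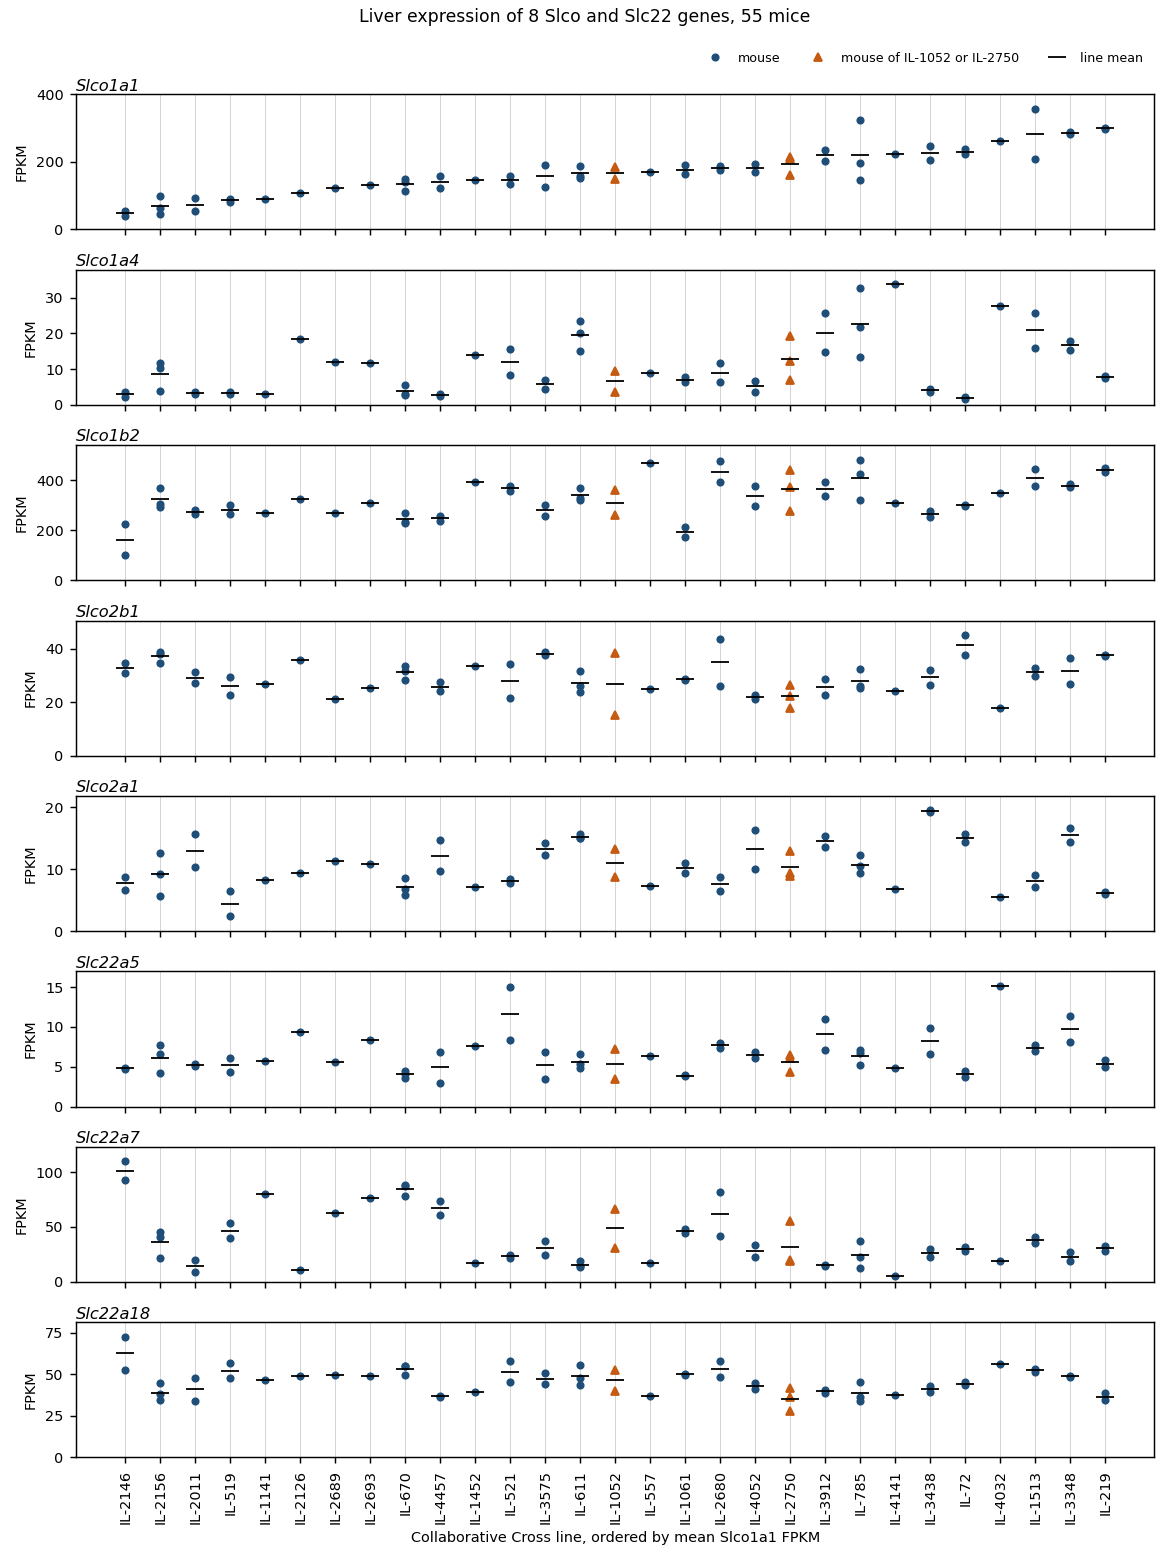
Levels of the 8 carriers in FPKM on linear axes from 0 for each of 55 mice, with lines ordered by mean Slco1a1. Points are mice, triangles are mice of IL-1052 and IL-2750, and bars are line means; Slco1a1 ran from 40.1 to 358 FPKM and IL-2146, at the left, had the lowest mean Slco1a1 and Slco1b2 and the highest mean Slc22a7 and Slc22a18.

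Across the 21 lines with at least 2 mice, 7 of the 8 carriers differed among lines beyond the spread between line mates (edgeR quasi-likelihood test, Benjamini-Hochberg adjusted p under 0.05), beside 88.5% of the 15285 genes tested. The exception was Slco2b1, with an adjusted p of 0.0598. A share of 7 of 8 is thus near that of the liver as a whole, and what sets the carriers apart from one another is the size and the direction of the differences. In bulk tissue, fewer cells of a type and less RNA per cell cannot be told apart. The limma test on log2(FPKM + 1) also called 7 carriers (89.9% of all genes), and the DESeq2 likelihood ratio test called all 8 (88.8% of all genes), with an adjusted p of 0.0122 for Slco2b1.

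Each line was then compared with the mean of the other 20 lines. Of 168 such contrasts of the carriers, 21 were higher (12.5%) and 18 lower (10.7%), beside 11% higher and 7.15% lower among all genes. Slco1a4 had 11 of the 39 calls, Slco1a1 8, Slc22a7 7, Slco2a1 and Slc22a18 4 each, Slco1b2 3 and Slc22a5 2, while Slco2b1 had 0 in edgeR, and 5 of 21 at an unadjusted p under 0.05. Without IL-1052 and IL-2750, 22 were higher and 19 lower. With 2 or 3 mice a line, 13 of the 39 passed in all 47 fits that left out 1 mouse, and 26 missed the threshold in at least 1 of them, with no call changing direction.

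**Figure D2:**
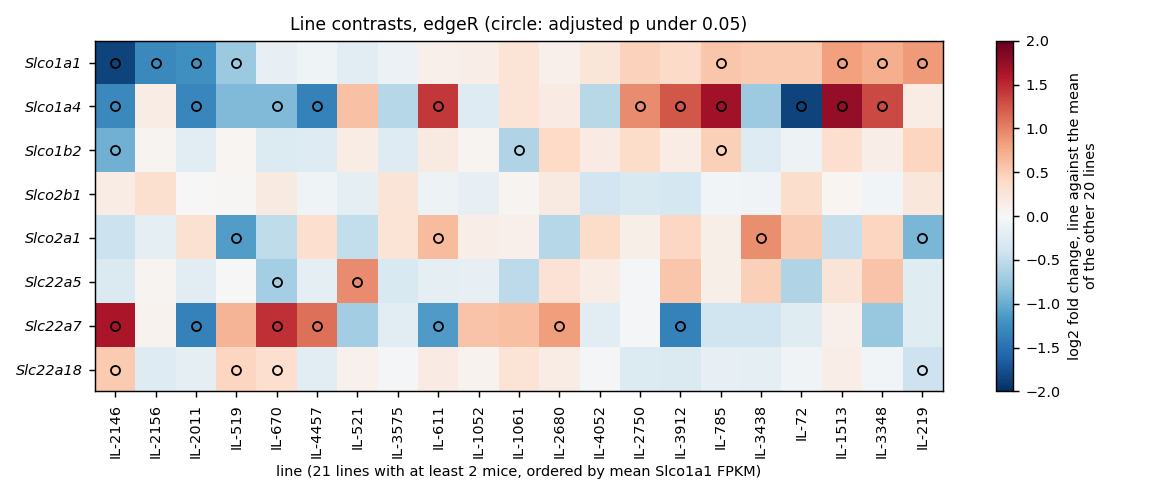
Log2 fold change of each carrier in each of 21 lines against the mean of the other 20 lines, from edgeR; circles mark the 39 contrasts with adjusted p under 0.05. Slco1a4 has the most circles (11) and Slco2b1 has none.

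Slco1b2, which encodes the mouse counterpart of the human statin and bilirubin carriers OATP1B1 and OATP1B3, had the highest level of the 8 genes (ENSMUSG00000030236, NCBI build 37, chromosome 6, 141578039 to 141635167, plus strand). Its level was 99.5 FPKM in the lowest mouse, 311 FPKM in the median mouse and 484 FPKM in the highest. Among the 29 line means the lowest was 162 ± 88.8 FPKM (SD, n = 2) in IL-2146, the highest was that of IL-557 with a single mouse at 470.15 FPKM, their ratio was 2.90, and 1 of the 28 neighbouring pairs in this order differed by more than the SD within lines of 47.8 FPKM. The SD over line means was 22.4% of their mean for Slco1b2, against 39.5% for Slco1a1 and 73.5% for Slco1a4.

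The 2 mice of IL-2146 had 99.5 and 225 FPKM of Slco1b2, and those of IL-1061 had 174 and 214 FPKM. All 4 values lay below the median mouse, which is not separate evidence because these lines were those called lower. Against the other lines, the log2 fold change was -0.96 ± 0.20 (SE) in IL-2146 (edgeR, adjusted p = 0.000711) and -0.61 ± 0.19 in IL-1061 (edgeR, adjusted p = 0.0243). The 3 mice of IL-785 had 320, 425 and 484 FPKM, with a log2 fold change of 0.48 ± 0.14 (edgeR, adjusted p = 0.0165). Each of these 3 calls ended in fits with fewer mice. Without IL-2146 replicate 1 the log2 fold change was -0.47 (adjusted p = 0.135 in edgeR), smaller than with both mice. It stayed near its value in IL-1061, at -0.72 without replicate 1 and -0.53 without replicate 2 (adjusted p = 0.0726 and 0.205 in edgeR). In IL-785 it was 0.37 without replicate 2 and 0.44 without replicate 3 (adjusted p = 0.141 and 0.0782 in edgeR).

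The promoter of Slco1b2 is shown because it is the one member promoter that held a match to the hepatocyte factor HNF1, known for liver expression of this carrier, and because it held a match to the growth hormone factor STAT5 as well; a promoter of Slco2b1 with a STAT5 match is set beside it. Both are the 250 bases before the RefSeq gene start in GRCm38.p6, read 5′ to 3′ on the strand of the gene, with matches in capitals. The build differs from that of the levels, and the coordinates are not comparable between them.
Slco1b2, chr6:141629268-141629517, plus strand: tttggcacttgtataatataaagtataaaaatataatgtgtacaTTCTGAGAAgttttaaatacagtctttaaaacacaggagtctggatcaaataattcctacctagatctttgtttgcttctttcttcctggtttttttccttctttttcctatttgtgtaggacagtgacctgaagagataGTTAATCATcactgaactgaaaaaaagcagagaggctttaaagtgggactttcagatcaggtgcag
Slco2b1, chr7:99695810-99696059, minus strand: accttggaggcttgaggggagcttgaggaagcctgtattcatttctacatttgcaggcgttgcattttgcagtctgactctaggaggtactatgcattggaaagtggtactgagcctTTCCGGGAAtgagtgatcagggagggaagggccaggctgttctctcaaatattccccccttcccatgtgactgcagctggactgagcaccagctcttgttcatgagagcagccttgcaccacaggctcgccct

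The HNF1 motif searched was GTTAATNAT on both strands, and it was matched by GTTAATCAT at -66 to -58 from the start of Slco1b2. It was present in 0.801% of 32851 promoter windows of the same length (250 bases before and 50 after the start). The STAT5 motif TTCNNNGAA was matched at -206 to -198 in Slco1b2 and in 2 of the promoters of Slco2b1, and was present in 8.3% of all windows. The core of a PPAR response element, GGTCANAGG (1.72% of all windows), and of an antioxidant response element, TGACNNNGC (12.4%), had no match in the 9 promoters of 7 members in the table. None of these motifs overlapped in the sequences printed. A match describes letters in a window and was not tied to binding.

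Slco1a1, which carries bile acids and sulfated steroids and is known for higher expression in males, lies in the same cluster on chromosome 6 (ENSMUSG00000041698, 141855803 to 141895483, minus strand). It had 40.1 FPKM in the lowest mouse, 165 FPKM in the median mouse and 358 FPKM in the highest. Line means ran in small steps from 47.2 ± 10.1 FPKM (SD, n = 2) in IL-2146 to 300.045 ± 1.77 FPKM (n = 2) in IL-219, a ratio of 6.35. No neighbouring pair of lines in this order differed by more than the SD within lines of 38.9 FPKM, so that the order holds between distant lines rather than adjacent ones.

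The lowest Slco1a1 levels were in IL-2146 (40.1 and 54.4 FPKM), IL-2156 (44.4, 62.0 and 100.01 FPKM) and IL-2011 (53.2 and 92.0 FPKM). The highest line means were in IL-219 (mice of 299 and 301 FPKM) and IL-3348 (mice of 281 and 288 FPKM). These lines were picked from the ends of the order, so that their lack of overlap is not separate evidence. Slco1a1 had a log2 fold change of -1.84 ± 0.27 in IL-2146 (edgeR, adjusted p = 1e-05) and -1.29 ± 0.21 in IL-2156 (edgeR, adjusted p = 4.9e-05). It was 0.86 ± 0.21 in IL-219 (edgeR, adjusted p = 0.00356). These 3 calls passed in all 47 fits that left out a mouse. The other 5, in IL-2011, IL-519, IL-785, IL-3348 and IL-1513, each missed the threshold without 1 of their own mice, and the mice of IL-1513 were far apart, at 209 and 358 FPKM.

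Slco1a4, a carrier of bile acids and cardiac glycosides known for induction through PXR, is the neighbour of Slco1a1 (ENSMUSG00000030237, 141753961 to 141804720, minus strand). Its level was far below those of Slco1a1 and Slco1b2, with 1.60 FPKM in the lowest mouse, 8.02 FPKM in the median mouse and 33.8 FPKM in the highest. The line means had a ratio of 18.2 between the single mouse of IL-4141 (33.8 FPKM) and IL-72 (1.86 ± 0.361 FPKM, n = 2), and of 12.2 among lines with at least 2 mice. Slco1a4 thus had the widest range among the 5 Slco members.

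The mice of IL-72 had 1.60 and 2.11 FPKM of Slco1a4, those of IL-1513 had 15.9 and 25.9 FPKM, those of IL-611 had 15.2, 19.99 and 23.6 FPKM, and those of IL-785 had 13.3, 21.8 and 32.7 FPKM. The 3 high lines overlapped one another, and IL-72, picked as the lowest line, lay below them. Slco1a4 had a log2 fold change of -1.85 ± 0.39 in IL-72 (edgeR, adjusted p = 0.00102). It was 1.75 ± 0.26 in IL-1513 (edgeR, adjusted p = 1.1e-05), 1.42 ± 0.23 in IL-611 (edgeR, adjusted p = 3.2e-05) and 1.68 ± 0.22 in IL-785 (edgeR, adjusted p = 1.6e-06). These 4 calls and that in IL-3348 (1.31 ± 0.27) passed in all 47 fits. The call for IL-2750 (0.95 ± 0.24, mice of 6.98, 12.4 and 19.3 FPKM) rests on a line whose labels are in doubt, and it ended without its replicate 1 (adjusted p = 0.139 in edgeR).

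The 2 Slco1a neighbours did not follow one order. IL-72 had the lowest Slco1a4 and a Slco1a1 level of 223 and 238 FPKM, above the median mouse, and IL-219 had the highest Slco1a1 and a mean Slco1a4 near the median. In IL-2146 and IL-2011 both were called lower, and in IL-1513, IL-3348 and IL-785 both were called higher. Because the estimated fragments of close paralogs in this cluster were shared out by the quantification, small differences between Slco1a1 and Slco1a4 are uncertain.

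Slco2b1, which carries steroid sulfates and taurocholate with a preference for acidic conditions (ENSMUSG00000030737, chromosome 7, 106806314 to 106859850, minus strand), was the member with the least evidence of line differences. It had 15.3 FPKM in the lowest mouse, 28.5 FPKM in the median mouse and 45.1 FPKM in the highest. Both mice of IL-72 were high, at 37.6 and 45.1 FPKM, and the single mouse of IL-4032 was low, at 17.99 FPKM. The widest pair of line mates was in IL-1052, at 15.3 and 38.3 FPKM, nearly the range of all mice. Without IL-1052 and IL-2750 the adjusted p of Slco2b1 was 0.0201 in edgeR, and it was 0.00395 without IL-1052 replicate 2 alone. Over all fits that left out 1 mouse it ran from 0.00395 to 0.128 (edgeR) and passed in 8 of 47.

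Slco2a1 encodes the prostaglandin transporter, which endothelial cells are known to express (ENSMUSG00000032548, chromosome 9, 102910817 to 102990179, plus strand). Its level was 2.42 FPKM in the lowest mouse, 9.39 FPKM in the median mouse and 19.5 FPKM in the highest. The mice of IL-3438 had 19.2 and 19.5 FPKM, and those of IL-611 had 14.95, 14.96 and 15.6 FPKM. The mice of IL-219 had 5.94 and 6.25 FPKM, and those of IL-519 had 2.42 and 6.44 FPKM. These 4 lines were those called, so that the lack of overlap between high and low ones is not separate evidence. Mates lay within a narrow band in 3 of them. Slco2a1 had a log2 fold change of 0.92 ± 0.20 in IL-3438 (edgeR, adjusted p = 0.00146) and 0.63 ± 0.17 in IL-611 (edgeR, adjusted p = 0.0107), and both passed in all 47 fits. It was -0.91 ± 0.25 in IL-219 and -1.11 ± 0.25 in IL-519, where each call ended without 1 mouse of the line. Of 15 markers of liver endothelium, 0 passed in their correlation with Slco2a1 over line means by permutation. At an unadjusted permutation p under 0.05 there were 3, beside 583 of 11283 genes. The median rho of these markers with Slco2a1 was 0.249 beside 0.0374 over all genes. It was higher with Slco1a1 (0.354 beside 0.110) and Slco1b2 (0.278 beside 0.117), and lower with the other members, so that it was not particular to Slco2a1.

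Slc22a7 encodes the organic anion carrier OAT2, which moves cyclic nucleotides and dicarboxylates among others (ENSMUSG00000067144, chromosome 17, 46569134 to 46575426, minus strand). Its level was 5.29 FPKM in the lowest mouse, 31.3 FPKM in the median mouse and 110 FPKM in the highest. The ratio of line means was 19.1 between IL-2146 (101.05 ± 12.2 FPKM, n = 2) and the single mouse of IL-4141, the widest of the 8 members, and 6.94 among lines with at least 2 mice, where Slco1a4 was wider at 12.2.

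The mice of IL-2146 had 92.4 and 110 FPKM of Slc22a7, and those of IL-670 had 78.0, 87.0 and 87.9 FPKM. The mice of IL-611 had 13.7, 14.1 and 19.1 FPKM. Slc22a7 had a log2 fold change of 1.63 ± 0.27 in IL-2146 (edgeR, adjusted p = 4.6e-05), 1.46 ± 0.23 in IL-670 (edgeR, adjusted p = 2.4e-05) and -1.13 ± 0.30 in IL-611 (edgeR, adjusted p = 0.00703). These 3 calls passed in all 47 fits. The mice of IL-2680, at 41.5 and 81.7 FPKM, were the weakest case, with an adjusted p of 0.0465 that became 0.857 without replicate 2 (edgeR), and the call passed in only 18 of the 47 fits. The other 3 calls, lower in IL-2011 and IL-3912 and higher in IL-4457, each ended without 1 of their own mice.

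Slc22a7 and Slco1a4, a pair picked after the calls were seen, were both called in 6 lines, in 5 of them in opposite directions. In IL-2146, IL-670 and IL-4457 Slc22a7 was called higher and Slco1a4 lower, in IL-611 and IL-3912 Slc22a7 was called lower and Slco1a4 higher, and in IL-2011 both were called lower. Over all 29 line means the rho of the pair was -0.568 (two-sided permutation test, p = 0.0016) and r was -0.58 (permutation p = 0.00091), with an adjusted p of 0.128 over all genes tested against Slco1a4. The pair thus failed the correction. Of the calls in these 6 lines, those of Slc22a7 in IL-2146, IL-670 and IL-611 and of Slco1a4 in IL-611 passed in all 47 fits. The rest did not.

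Slc22a5 encodes OCTN2, the sodium-dependent carnitine transporter, which supplies carnitine for the entry of long-chain fatty acids into mitochondria and is itself a known PPAR alpha target (ENSMUSG00000018900, chromosome 11, 53678044 to 53705162, minus strand). Its level was 2.97 FPKM in the lowest mouse, 6.06 FPKM in the median mouse and 15.2 FPKM in the highest, which was the single mouse of IL-4032. The mice of IL-521 had 8.32 and 15.1 FPKM, and those of IL-670 had 3.56, 4.09 and 4.48 FPKM. IL-521 and IL-670 were the 2 lines called, so that their lack of overlap is not separate evidence. Slc22a5 had a log2 fold change of 0.94 ± 0.22 in IL-521 (edgeR, adjusted p = 0.00263) and -0.68 ± 0.22 in IL-670 (edgeR, adjusted p = 0.0270). The call in IL-521 ended without its replicate 1 (log2 fold change 0.42, adjusted p = 0.423 in edgeR). That in IL-670 ended without any of its 3 mice, with log2 fold changes of -0.66, -0.70 and -0.67 that stayed near the full value (adjusted p = 0.0928, 0.0715 and 0.0860 in edgeR).

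Slc22a18, an imprinted gene of distal chromosome 7 expressed from the maternal allele and known as a candidate cation carrier (ENSMUSG00000000154, 150659626 to 150685239, plus strand), had the narrowest range. Its level was 28.02 FPKM in the lowest mouse, 45.4 FPKM in the median mouse and 72.7 FPKM in the highest, and the ratio of line means was 1.78. The mice of IL-2146 had 52.9 and 72.7 FPKM, and those of IL-670 had 49.8, 55.15 and 55.2 FPKM, all above the median mouse. Both lines were among those called higher, so that this is not separate evidence. Slc22a18 had a log2 fold change of 0.52 ± 0.11 in IL-2146 (edgeR, adjusted p = 0.00106), 0.33 ± 0.09 in IL-670, 0.43 ± 0.11 in IL-519 and -0.42 ± 0.12 in IL-219. All 4 calls missed the threshold in a fit without 1 mouse of the line.

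Line IL-2146 held 5 of the 39 calls, the most of any line: Slco1a1, Slco1a4 and Slco1b2 lower, and Slc22a7 and Slc22a18 higher. Of these, Slco1a1 and Slc22a7 passed in every fit that left out 1 mouse, while Slco1b2, Slco1a4 and Slc22a18 missed the threshold without replicate 1. IL-2146 also had the lowest summed level of 15 endothelial markers (26.3 FPKM, with line means of 26.3 to 98.4) and of 10 stellate markers (14.9 FPKM, with line means of 14.9 to 127), and ranked 26 of 29 from the lowest for the hepatocyte markers and 28 of 29 for 6 blood markers (2618 FPKM, with line means of 509.81 to 4174). The part of this in the carrier levels was not tested. Line IL-670 held 4 calls, higher for Slc22a7 and Slc22a18 and lower for Slco1a4 and Slc22a5. The share of all genes called in IL-2146 or in IL-670 alone was not computed. Whether these counts are high for their line is therefore not known.

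The share of variance between lines, as the intraclass correlation of rank-based scores over all 55 mice, followed the same division. It was 0.792 ± 0.066 (jackknife SE) for Slco1a4, 0.748 ± 0.119 for Slco1a1, 0.743 ± 0.102 for Slc22a7, 0.690 ± 0.116 for Slco1b2 and 0.676 ± 0.133 for Slco2a1. It was 0.445 ± 0.154 for Slc22a18, 0.408 ± 0.240 for Slc22a5 and 0.307 ± 0.353 for Slco2b1. The quartiles over 5949 genes were 0.486, 0.592 and 0.693, so that 3 members lay above the upper quartile and 3 below the lower one. Without IL-1052 and IL-2750 the values of Slc22a5, Slco2b1 and Slco1b2 were 0.489, 0.493 and 0.772. Set against the same quartiles, which were not recomputed without these lines, 4 members would then lie above the upper and 1 below the lower.

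The use of annotated isoforms was measured as the percent of a gene's expression given to each. Of the 30 annotated isoforms of the 8 genes, 13 had enough levels to test and 8, in 4 genes, differed among lines (limma on rank-based scores, adjusted p under 0.05), beside 27.5% of 21415 isoforms of all genes. Isoforms of a gene sum to 100 percent, so that those of 1 gene are not separate evidence. Slco1b2 was made up almost wholly by 1 isoform (98.7% to 99.9% in all mice), and Slco2a1 by 1 isoform in most mice (median 100%, lowest mouse 61.2%), and neither was tested. The tested isoforms of Slc22a5 and Slc22a7 did not pass. Without IL-1052 and IL-2750, 8 of the 13 passed as well.

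Slco1a1 was divided between ENSMUST00000042119, with 14 exons, and ENSMUST00000168119, with 15 exons. The first had 39.4% in the lowest mouse, 63.4% in the median mouse and 77.9% in the highest, and differed among lines (limma, adjusted p = 0.0112). The mice of IL-2146, with the least Slco1a1, had 74.9% and 77.9%, and the single mouse of IL-2126 stood apart at 39.4%, where the second isoform had 60.1%. The second differed among lines as well (limma, adjusted p = 0.0190), which became 0.0626 without IL-2146 replicate 2. The first isoform of Slco1a1 rested on a median of 9739 estimated fragments.

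Line IL-72, the lowest for Slco1a4 and the highest for Slco2b1, also had the highest mean share of a minor isoform of both. The 17-exon isoform ENSMUST00000165990 had a median of 3.72% of Slco1a4 and 21.5% and 40.4% in the mice of IL-72 (limma test among lines, adjusted p = 0.00665). Only 28.8 and 69.7 estimated fragments stood behind these shares. The isoform ENSMUST00000145381 had a median of 1.62% of Slco2b1 and 14.9% and 10.8% in IL-72, on 108 and 63.2 fragments (limma, adjusted p = 0.00532). For Slco2b1 the next line mean was 4.54%, that of the single mouse of IL-2126. For Slco1a4 other lines overlapped IL-72: the highest mouse of IL-1061 had 26.8%, that of IL-219 had 24.4%, and the single mouse of IL-4032 had 23.6%, on 731 fragments.

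A short isoform of Slco1a4, ENSMUST00000163678 of 622 bases, had a median of 25.9% and differed among lines (limma, adjusted p = 0.0130). Its shares rested on a median of only 30 estimated fragments. Slc22a18 was divided between ENSMUST00000052348 (median 59.8%) and ENSMUST00000105917 (median 34.8%), with line means of 51.6% to 70.5% for the first (limma, adjusted p = 0.0149 and 0.00911). The remaining call, ENSMUST00000137914 of Slco2b1 with a median of 3.17% and of 8 fragments, had an adjusted p of 0.0370 on scores and of 0.318 on percent values (limma).

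**Figure D3:**
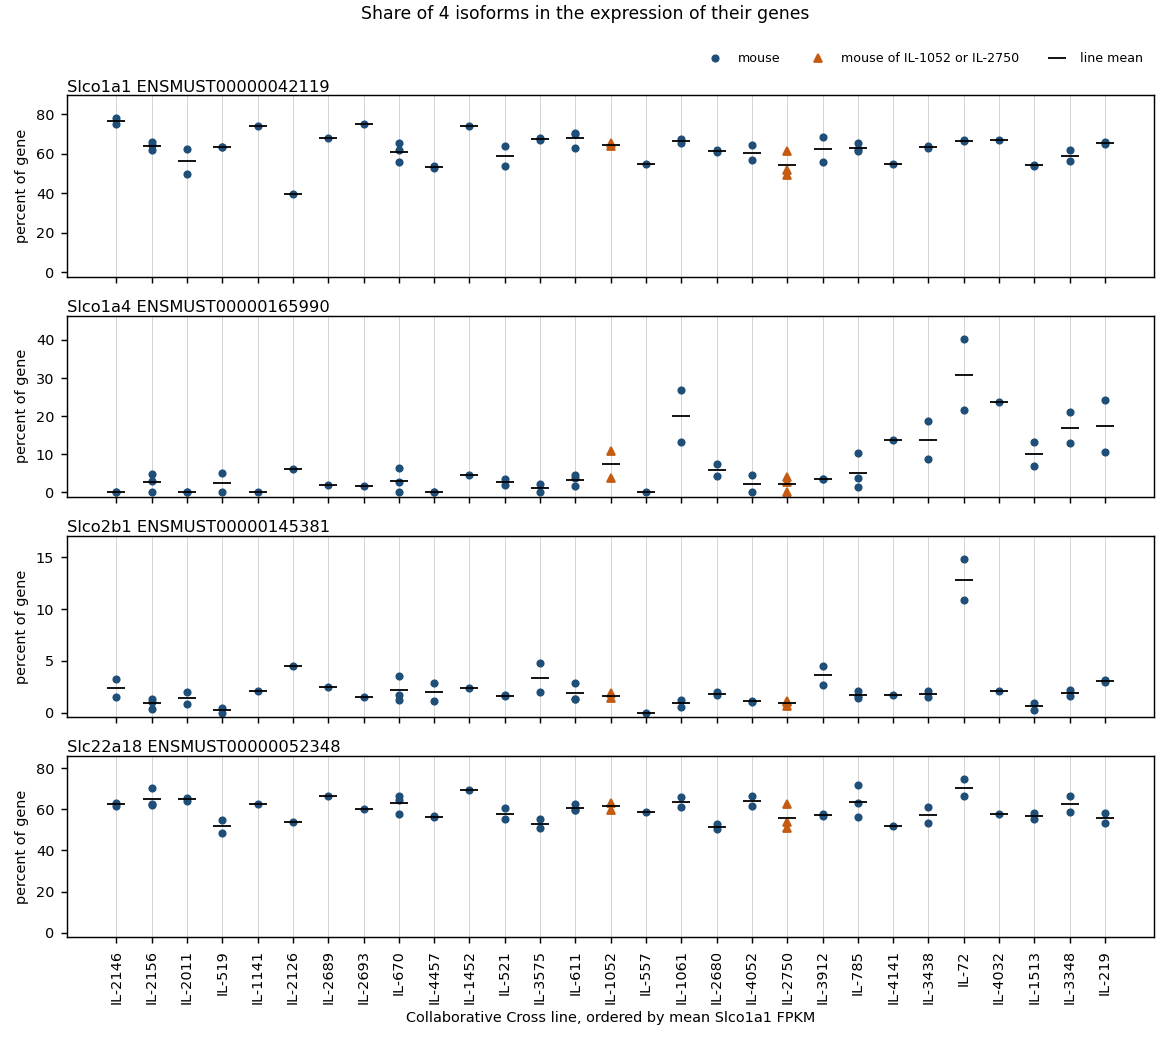
Percent of the expression of its gene given to each of 4 isoforms, on linear axes, for 55 mice in the line order of the plot of levels; points are mice, triangles are mice of IL-1052 and IL-2750, and bars are line means. The mice of IL-72 are at 21.5% and 40.4% in the Slco1a4 panel and at 14.9% and 10.8% in the Slco2b1 panel.

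The question whether the carriers vary together was asked over 29 line means of log2(FPKM + 1). Lines share founder haplotypes. Each pair was adjusted once, over all genes tested against the carrier that comes first in the plot of pairs. On that basis 1 of the 28 pairs passed, beside 1.17% of 90264 pairs of a carrier with any gene. This was Slco1b2 with Slc22a5, with a rho of 0.602 (two-sided permutation test, p = 0.00067, adjusted p = 0.0237) and an r of 0.49 (permutation p = 0.0084), which was 0.42 without the 2 lines farthest from the median of Slco1b2. The pair lost the call without line IL-1061, IL-2146 or IL-670 (adjusted p = 0.0579, 0.0685 and 0.0603 from permutations) or without IL-4457 replicate 1 (adjusted p = 0.0639).

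Without IL-1052 and IL-2750 it passed (rho 0.599, adjusted p = 0.0403 from permutations), as it did on TPM (rho 0.683, adjusted p = 0.00345). The pair of Slco1b2 and Slc22a5 lost the call when levels were scaled by the trimmed mean of M values (TMM) instead of total fragments, with a rho of 0.414 and an adjusted p of 0.223 from permutations. On that scale 0 of the 28 pairs passed, and 10 had an unadjusted p under 0.05, against 9 in FPKM. The TMM factors ran from 0.824 to 1.14 and moved with Slc22a5 (rho 0.608, permutation p = 0.00073; r 0.63, permutation p = 0.00035), Slco1b2 (rho 0.528, permutation p = 0.0036; r 0.52, permutation p = 0.0035) and Slco1a1 (rho 0.416, permutation p = 0.026; r 0.40, permutation p = 0.032) over line means. These p-values are not adjusted over the 16 relations of factors and depth with the members, and depth had none under 0.05. Counts of genes that passed with Slc22a5 and Slco1b2 are therefore given on both scales.

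The part of library scaling in these correlations was not tested beyond this comparison. Within the Slco1 cluster the rho was 0.622 for Slco1a4 with Slco1b2, 0.513 for Slco1a1 with Slco1b2 and 0.423 for Slco1a1 with Slco1a4 (adjusted p = 0.0842, 0.320 and 0.395 from permutations). All 3 were positive on both scales, and none passed as adjusted over the genes of the first carrier. Over the genes of Slco1b2, Slco1a4 would pass in FPKM. Its rho was above that of Slc22a5, which passed there (0.602, adjusted p = 0.0237 from permutations). Slco1a4 with Slc22a5 had a rho of 0.561 in FPKM and 0.581 on the TMM scale. That pair did not pass over the genes of Slco1a4 (adjusted p = 0.140 and 0.118 from permutations). Among the FPKM correlations of Slc22a5, 0.561 lay between Cyp4a14 (0.582, adjusted p = 0.0381), which passed, and Acot2 (0.530, adjusted p = 0.0651), which did not. Whether the pair would pass over the genes of Slc22a5 is thus not settled here. In the 21 lines with at least 2 mice Slco1a4 with Slco1b2 passed (rho 0.756, adjusted p = 0.0356 from permutations), as did Slco1b2 with Slc22a5 (rho 0.695, adjusted p = 0.0334). Slco2b1 and Slco2a1 had a rho between -0.267 and 0.125 with every other member in FPKM.

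**Figure D4:**
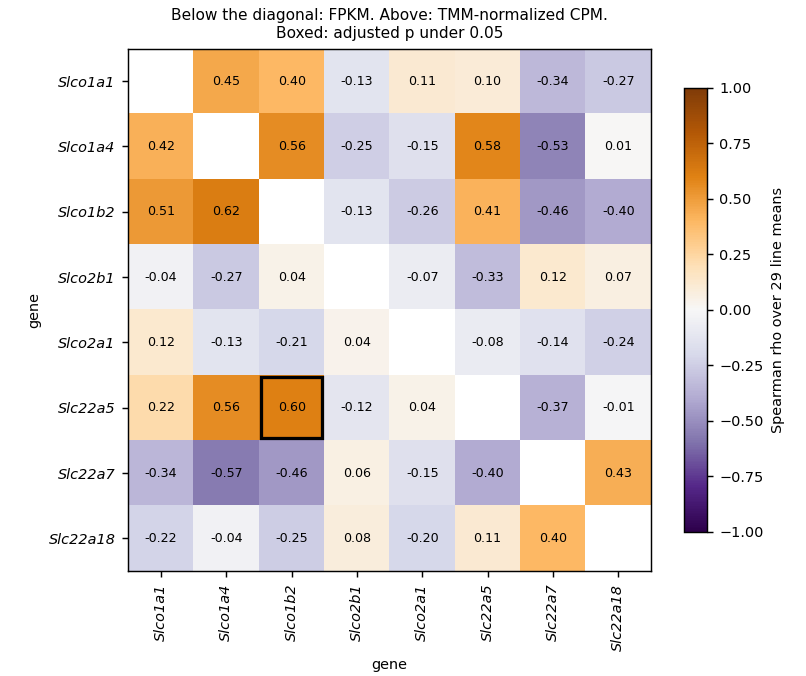
Spearman rho of each pair of the 8 carriers over 29 line means, in FPKM below the diagonal and in TMM-normalized counts above it. Colour and printed value give rho. The box marks the pair with adjusted p under 0.05 over all genes tested against the carrier that is first in axis order. The boxed pair, Slco1b2 with Slc22a5, has 0.60 below and 0.41 above the diagonal.

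With all other genes, Slc22a5 passed positively with 4.33% of genes in FPKM (489 genes), with 352 genes without IL-1052 and IL-2750, with 2423 in TPM and with 0 in TMM-normalized counts (1228 of 11283 at an unadjusted p under 0.05). Of the list of 22 PPAR alpha targets, 12 passed, all positive, with a median rho of 0.602 beside 0.168 over all genes. They include enzymes of mitochondrial fatty acid oxidation and its carnitine shuttle. Hadhb, the beta subunit of the trifunctional protein, had a rho of 0.808 and an r of 0.78 (both permutation p = 1e-05, the smallest these permutations can give, adjusted p = 0.00664), with an r of 0.77 without the 2 lines farthest from the median of Slc22a5. Slc25a20, the carnitine-acylcarnitine translocase, had a rho of 0.760 (adjusted p = 0.00664 from permutations). Cpt2 and Cpt1a, the carnitine palmitoyltransferases, had rho of 0.697 and 0.668 (adjusted p = 0.00885 and 0.0178 from permutations), and Cyp4a10, an omega-hydroxylase, 0.718 (adjusted p = 0.00885). The targets Pdk4, Fgf21 and Ehhadh had 0.05, 0.194 and 0.246 and did not pass.

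The line means of Hadhb ran from 69.2 to 134 FPKM, and the 3 lines with the least Slc22a5 (IL-1061, IL-670 and IL-72) had 69.3, 77.6 and 69.2 FPKM of it. The 2 lines with the most, IL-4032 and IL-521, had 119 and 134 FPKM. On the TMM scale 0 of the 22 targets passed, 15 had an unadjusted p under 0.05, and their median rho was 0.481 beside 0.0044 over all genes, and Hadhb had 0.673 (adjusted p = 0.105 from permutations). Without IL-4032, 7 targets passed, without IL-1052 and IL-2750, 11, and in the 21 lines with at least 2 mice, 3. Calls of targets thus changed with the scale and with the lines used.

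**Figure D5:**
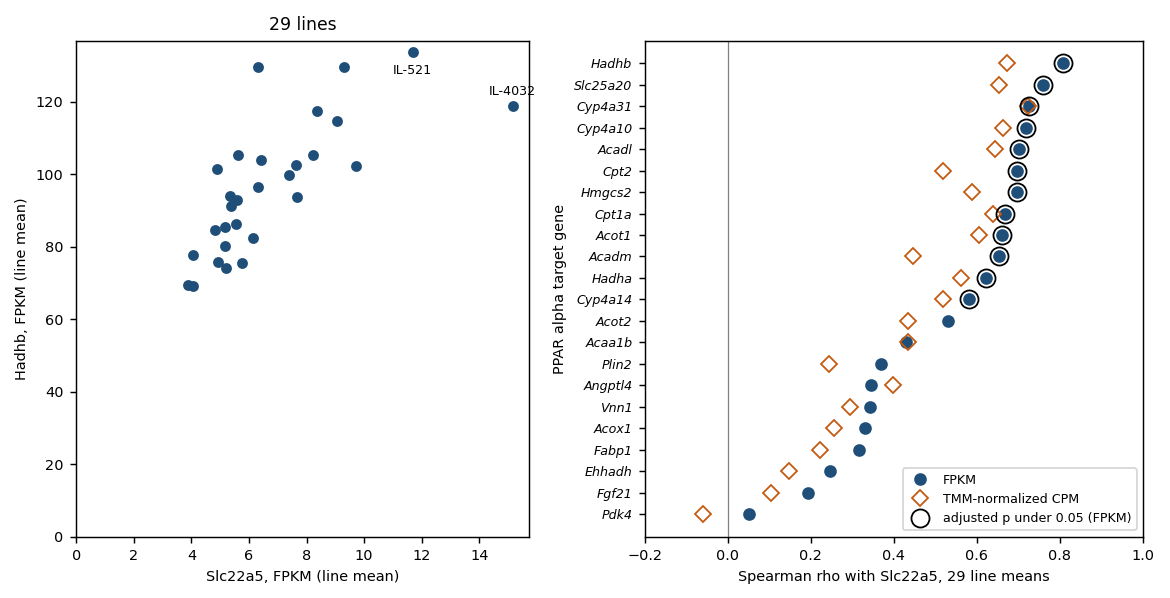
Left, mean Hadhb against mean Slc22a5 in FPKM for 29 lines on axes from 0, each point a line. Right, Spearman rho over 29 line means of 22 PPAR alpha targets with Slc22a5 in FPKM (filled) and TMM-normalized counts (open), with rings for adjusted p under 0.05 in FPKM; 12 targets have rings, and 21 of the 22 open symbols lie right of 0.

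Other genes that passed with Slc22a5 included Nr1i2, which encodes PXR (rho 0.669, adjusted p = 0.0178 from permutations), and Slc22a23, an orphan member of its own family (rho 0.663, adjusted p = 0.0178). Nr1i2 had a rho of 0.573 on the TMM scale (adjusted p = 0.175 from permutations). By the rule of highest rho, the genes most like Slc22a5 were Gtf2i (0.819), Oxsr1 (0.809) and Hadhb. On the TMM scale Gtf2i had 0.785 and did not pass (adjusted p = 0.0564 from permutations).

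Slco1b2 passed positively with 4.78% and negatively with 0.213% of genes in FPKM, which is 539 and 24 genes. These counts were 406 and 12 without IL-1052 and IL-2750, 1878 and 12 in TPM, and 7 and 12 on the TMM scale. Of 11 genes of pericentral hepatocytes, 2 passed with it: Cyp2e1, the ethanol-inducible P450 (rho 0.744, r 0.61, adjusted p = 0.00434 from permutations), and Slc1a2, a glutamate carrier (rho 0.680, r 0.67, adjusted p = 0.0115). On the TMM scale Cyp2e1 still passed (rho 0.701, adjusted p = 0.0282 from permutations) and Slc1a2 did not (adjusted p = 0.0616). The genes most like Slco1b2 were Ube2e2 (rho 0.836), Tnks2 (0.796) and Alg11 (0.786), and Ube2e2 passed on both scales (TMM adjusted p = 0.0282 from permutations). Of 22 PPAR alpha targets 3 passed with Slco1b2 in FPKM and 0 on the TMM scale, where 6 had an unadjusted p under 0.05. Of the pericentral genes 3 passed with Slc22a5 in FPKM (Cyp2e1, Oat and Slc1a2) and 0 on the TMM scale, where 3 had an unadjusted p under 0.05.

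Slc22a7 passed positively with 2 genes (0.0177%) and negatively with 1 in FPKM, and the 2 positive genes also passed on the TMM scale. With TPM, without IL-1052 and IL-2750, in the 21 lines with at least 2 mice, and over all genes above 0 FPKM, 0 genes passed with Slc22a7. One was Gm5093, which lies on chromosome 17 at 46576527 to 46577048 in NCBI build 37, next to Slc22a7 (rho 0.798, r 0.78, adjusted p = 0.0376 from permutations), with line means of 0 to 3.33 FPKM. The other was Tlcd2, a lipid-related membrane protein gene with line means of 23.6 to 158 FPKM (rho 0.748, r 0.73, adjusted p = 0.0376 from permutations). Without IL-4141 and IL-2146, the lines farthest from the median of Slc22a7, r was 0.70 and 0.69. On the TMM scale the rho values were 0.819 and 0.804 (both adjusted p = 0.0376 from permutations). Whether reads of Slc22a7 and Gm5093 can be told apart was not tested.

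With the other 5 carriers 0 genes passed by permutation in FPKM over 29 lines, and 583 (Slco2a1) to 1529 (Slco1a4) of 11283 had an unadjusted p under 0.05. For Slco1a4 this changed with the setting: 22 genes passed positively in TPM, 40 positively and 1 negatively in the 21 lines with at least 2 mice, and 165 and 33 without the lightest and heaviest line. The nearest to Slco1a4 was Cyp2e1 (rho 0.747, adjusted p = 0.0564 from permutations), and the nearest to Slco2b1 was Lcn2, a gene of the acute phase response with line means of 0.4 to 1861 FPKM (rho 0.744, adjusted p = 0.0564). On the TMM scale Cyp2e1 had a rho of 0.731 with Slco1a4, and Lcn2 had 0.645 with Slco2b1 (adjusted p = 0.0744 and 0.403 from permutations). Of the 3 lines highest for Slco2b1, IL-72 had a mean of 285 FPKM of Lcn2, IL-3575 of 85.9 FPKM and IL-219 of 9.21 FPKM. IL-2156, which ranked 4 from the highest for Slco2b1 (37.2 FPKM), had the most Lcn2, at 1861 FPKM. Of 20 CAR and PXR targets, 0 passed with Slco1a4 and 8 had an unadjusted permutation p under 0.05, with a median rho of 0.343 beside 0.0483 over all genes. This was not particular to that list. The 22 PPAR alpha targets had a median rho of 0.337 with Slco1a4, with 10 at an unadjusted permutation p under 0.05. The 11 pericentral genes had a median of 0.308, with 4 under 0.05, and the remaining lists had lower medians. Of 22 male-biased genes, 0 passed with Slco1a1 and 2 had an unadjusted permutation p under 0.05, with a median of 0.0217 beside 0.110. The nearest genes to Slco1a1, Slco2a1 and Slc22a18 were Nvl (0.726), Capn10 (0.677) and Ndufv1 (0.721), and none passed.

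Neither body weight nor age passed with any carrier, nor with any gene (0% of 11284 for each, by permutation, with 684 and 610 genes at an unadjusted p under 0.05). The largest rho of a carrier was -0.396 for Slc22a18 with weight (r -0.42, permutation p = 0.033 for rho, adjusted p = 0.764) and -0.402 for Slc22a7 with age (r -0.32, permutation p = 0.033 for rho, adjusted p = 0.890).

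Among relatives of the 8 genes, Slco1a6, of the same cluster, was the one other Slco gene of 10 with 2 FPKM or more in any mouse, and its line means ran from 0.2 FPKM in IL-2126 to 9.78 FPKM in IL-2680 (edgeR, adjusted p = 3.7e-07). Of 26 other Slc22 and basolateral uptake genes, 16 were tested and 15 passed among lines in edgeR, beside 88.5% of all 15285 genes tested. Slc10a1, the main sodium-dependent bile acid carrier, had line means of 263 to 441 FPKM, a ratio of 1.68. The ratio of line means was 32.3 for Slc22a28 and 26.2 for Slc22a30, which lie in the Slc22 cluster of chromosome 19.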

How the data were processed

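Liver poly(A) RNA of 55 mice was sequenced as paired-end reads of 50 bases with a stranded kit, per the labels and the study's methods. The authors aligned the reads with Bowtie 2 version 2.1.0 to transcripts of Ensembl release 67 on mouse NCBI build 37 (mm9) with levels estimated in RSEM version 1.2.18. Per the labels, the deposited estimated counts (expected counts) are not normalized, and fragments that match several genes or isoforms were shared out by RSEM, which makes close paralogs uncertain. The deposited TPM and FPKM were scaled by the authors' RSEM run for length and for library total. The deposited percent values give each isoform's part of its gene.

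Mice were grouped by the line in their label, with replicate numbers given in accession order, and symbols were matched for 37205 of 37620 gene IDs. Line tests used edgeR version 4.0.16 (TMM, default expression filter) on counts rounded to whole numbers in 47 mice of 21 lines, with Benjamini-Hochberg adjustment over all genes, or over all genes and lines, at 0.05. Fits that left out a mouse kept the dispersion trend of the full fit, and a line left with 1 mouse was assumed to vary like the others. Isoform percent values were tested with limma version 3.58.1 on van der Waerden scores, after rounding to steps of 0.5 percentage points, for isoforms with at least 12 distinct levels. DESeq2 version 1.42.0 and limma on log2(FPKM + 1) were alternatives. Correlations used 29 line means, genes with a maximum FPKM of at least 2, 100000 permutations and adjustment over all genes for each carrier. A pair of carriers took the adjustment of the carrier that comes first in the plot of pairs. No library batch was named in the labels, so none was used. Line mates were not called separate cages or litters in the labels, and p-values measure the spread between these mice. In 31 pairs of line mates, counts differed by at least 13.5 times the sampling variance. Within a line, no library was therefore counted as deposited more than once. Pairs of mice across lines were not compared in this way. Promoters came from RefSeq for GRCm38.p6 and matched 7 of the 8 genes.

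The genes named were the 8 members, their isoforms, the 3 genes most correlated with each, up to 4 genes of each list compared and expressed family genes. The Slc22a5 correlations of all 22 PPAR alpha targets, and the lines named, were chosen for display after values were seen. The members and the 18 gene lists were chosen with earlier results of these data known. Repeats of the list counts on TMM counts, with a pseudocount of 0.1, in 21 lines, without the lightest and heaviest line and without each line or mouse were chosen after seeing the data.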

Additional observations from a re-analysis of the deposited data

How the results depend on the processing

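Of the values that passed a threshold, 0 changed direction, while pairs with rho near 0 could change sign, such as Slco1b2 and Slco2b1 (0.042 in FPKM, -0.128 on TMM counts). The number of genes that passed with Slco1a4 and Slc22a7 was 0 in some settings and not in others, as given above. The count of carriers that differed among lines was 7 or 8 under every alternative run, where Slco2b1 moved across the threshold. The higher and lower line contrasts numbered 19 to 24 and 16 to 20 without single mice, and the tested isoforms called numbered 7 to 9. With lines of at least 2 mice only, the ratio of line means was 12.2 for Slco1a4, 1.88 for Slco2b1, 3.01 for Slc22a5 and 6.94 for Slc22a7, because the single-mouse lines left out held an extreme. The number of carrier pairs that passed, each adjusted over the genes of its first carrier, was 0 on TMM counts, 2 in the 21 lines, and 0 to 1 without single lines or mice. Of 22 PPAR alpha targets, 0 passed with Slc22a5 on TMM counts, 3 in the 21 lines and 7 to 13 without single lines or mice, against 12. With Slco1b2, 8 passed on TPM, 0 on TMM counts, 1 in the 21 lines, 1 to 5 without single lines and 1 to 4 without single mice, against 3. Of the pericentral genes, 1 passed with Slco1b2 on TMM counts, against 2, and 0 passed with Slc22a5 on TMM counts, 1 without IL-1052 and IL-2750, 1 without the lightest and heaviest line, and 1 to 3 without single lines or mice, against 3. The cause of these changes was not tested. No paired analysis was possible because replicate numbers were given in accession order and pair no mice. Depth limits mainly the isoform shares of Slco1a4 and Slco2b1. Their called isoforms had medians of 30 and 50 fragments for Slco1a4 and of 8 and 10 for Slco2b1.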
